A study of Mus musculus with 2 samples.

Results

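Genes of canonical olfactory transduction were followed through the mouse vomeronasal organ (VNO): Cnga2, Cnga4, Cngb1, Adcy3, Gnal, Ano1 and Ano2. They were chosen by name from the 32285 genes counted, as a list of 7 that does not hold the whole pathway. All 7 are described whatever their level. The VNOs came from wild-type C57BL/6J male mice at postnatal day 60, and were dissociated with papain and frozen before capture. Both droplet libraries were sequenced from the 3′ end of the transcript, with a unique molecular identifier (UMI) on each molecule. No treatment or mutation was compared, so the groups below are groups of cells, and the 2 libraries are the replicates. No source says how the mice, 5 in all, were divided between the libraries, so p-values measure the spread between 2 libraries, which may be technical.

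In the main olfactory epithelium, an odorant receptor activates the G protein α-subunit Gαolf (Gnal), which stimulates adenylyl cyclase type III (Adcy3). The cAMP formed opens a cyclic nucleotide-gated channel built from Cnga2, Cnga4 and Cngb1, and the calcium that enters opens the chloride channel Ano2. Vomeronasal sensory neurons (VSNs) use another route, in which V1R receptors act with Gαi2 (Gnai2) and V2R receptors with Gαo (Gnao1), followed by phospholipase C and calcium. The calcium-activated chloride channels Ano1 and Ano2 are known to be active in VSNs as well. The olfactory marker protein gene Omp marks mature neurons of both organs and cannot tell them apart.

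The sequences upstream of the 3 channel subunit genes are shown because Cnga4 and Cngb1 were both found in VSNs and Cnga2, from the same channel, was hardly detected. They are the 250 bases before the annotated start in RefSeq (GRCm38.p6), 5′ to 3′ on the strand of the gene, and capitals mark CCCNNGGG, the core of sites for the Ebf factors of sensory neurons. The Cnga2 window lies at chrX:71991599-71991848 on the plus strand, that of Cnga4 at chr7:105404318-105404567 on the plus strand and that of Cngb1 at chr8:95306586-95306835 on the minus strand.
Cnga2: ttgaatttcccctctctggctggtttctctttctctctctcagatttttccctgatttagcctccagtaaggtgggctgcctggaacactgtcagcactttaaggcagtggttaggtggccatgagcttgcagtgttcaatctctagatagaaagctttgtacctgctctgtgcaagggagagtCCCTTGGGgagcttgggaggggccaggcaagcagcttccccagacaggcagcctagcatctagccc
Cnga4: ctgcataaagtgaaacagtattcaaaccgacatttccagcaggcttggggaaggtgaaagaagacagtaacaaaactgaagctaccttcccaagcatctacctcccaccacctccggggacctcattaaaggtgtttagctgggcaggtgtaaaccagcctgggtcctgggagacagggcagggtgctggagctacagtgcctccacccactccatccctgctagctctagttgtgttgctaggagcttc
Cngb1: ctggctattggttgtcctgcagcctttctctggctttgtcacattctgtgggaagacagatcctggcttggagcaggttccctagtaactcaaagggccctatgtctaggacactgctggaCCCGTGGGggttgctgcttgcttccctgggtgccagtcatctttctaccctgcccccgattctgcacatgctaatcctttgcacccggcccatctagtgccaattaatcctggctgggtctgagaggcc
The core, which reads the same on both strands, was found once upstream of Cnga2 and once upstream of Cngb1. It was not found in these letters upstream of Cnga4. Of the 32851 windows of this length in the table, 11.8% held it. The homeodomain core TAATTA was in none of the 3 windows and in 4.84% of all.

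The 7 genes are protein coding and lie on 6 chromosomes (GENCODE M21, GRCm38). Cnga4 (ENSMUSG00000030897) spans chr7:105404568-105408742 on the plus strand, and Ano1 (ENSMUSG00000031075) chr7:144588549-144751974 on the minus strand. Cngb1 (ENSMUSG00000031789) spans chr8:95239045-95306585 on the minus strand, and Cnga2 (ENSMUSG00000005864) chrX:71991849-72010218 on the plus strand. Adcy3 (ENSMUSG00000020654) lies at chr12:4133103-4213525, Gnal (ENSMUSG00000024524) at chr18:67088216-67226792 and Ano2 (ENSMUSG00000038115) at chr6:125690419-126040126, all on the plus strand. Adcy3 overlaps Cenpo, and Ano1 overlaps the antisense gene Gm44930, on the other strand. Gnal overlaps 3 other counted genes, of which Chmp1b lies on its own strand, and reads shared with it cannot be told apart. No source read here states the strand setting of the counting.

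The files held 24084 barcodes with 203447857 UMIs, 108005626 in library 1 and 95442231 in library 2. A filter on genes and mitochondrial UMIs left 10592 cells, 5694 and 4898 by library, with medians of 6668 and 6650.5 UMIs. The libraries shared 33 barcode sequences, 3 of them among the cells kept, and summed groups differed between libraries by more than sampling noise. A cluster of 109 cells came from library 1 alone. Raising the mitochondrial limit from 5% to 10% kept 18705 cells, and the number of Omp neurons, defined next, rose from 950 to 2147.

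Omp neurons were cells with at least 5 Omp UMIs and at least 3 of 6 general neuronal genes, 518 in library 1 and 432 in library 2. Of the 950, 914 carried at least 1 UMI of a Vmn1r or Vmn2r receptor gene and are called receptor-bearing. Among these, 769 had more Vmn1r UMIs (V1R neurons), 143 more Vmn2r UMIs (V2R neurons) and 2 were tied. The other 36, 19 and 17 by library, had none and are called receptor-free. Immature neurons were 424 cells with the neuronal genes, at least 3 UMIs of the growth-cone gene Gap43 and fewer than 5 of Omp. Other cells were 5243 cells with no Omp UMI, no vomeronasal receptor UMI and fewer than 3 neuronal genes, so they are also the cells with the least neuronal RNA from outside.

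No group of olfactory neurons was found with which the VSNs could be compared. Of the markers listed for olfactory neurons, Rtp1 (odorant receptor transport) and Gfy were high in the receptor-bearing neurons, at 311 and 1530 CPM (UMIs per 1000000 UMIs of the group), and so did not separate the organs. Stoml3, a stomatin-like protein of olfactory cilia, had 11 UMIs in the 914 receptor-bearing neurons. All 36 receptor-free neurons carried Gnai2, at 3414 CPM against 2398 CPM in the receptor-bearing, and none carried Tfap2e, the factor of basal VSNs. The receptor-bearing neurons are a mix of V1R neurons, with Gnai2 at 2824 CPM, and V2R neurons, at 619 CPM. A UMI of Tfap2e was in 4.81% of V1R and 81.1% of V2R neurons. The apical factor Meis2 (832 CPM) and the VSN G protein γ-subunit Gng8 (1002 CPM) differed from the receptor-bearing by 0.39 ± 0.15 and -0.39 ± 0.14 on the log2 scale, with adjusted p of 0.481 and 0.461 (edgeR).

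Cnga2, the subunit that the olfactory channel cannot do without, was close to absent. It had 2 UMIs among the 203447857 of all barcodes, and 1 among the cells kept, in a fibroblast-like cell. None of the 950 Omp neurons carried it, which allows a share of up to 0.316% of neurons with a UMI. Receptor-bearing neurons held 0 Cnga2 UMIs in 18869787 and immature neurons 0 in 4305179. Such intervals and floors cover counting error alone. The gene did not reach the minimum of 10 UMIs in any comparison and was not tested.

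Gnal was nearly as sparse. It was found in 8 Omp neurons, 1 UMI in each, so that receptor-bearing neurons stood at 0.402 CPM in library 1 and 0.448 CPM in library 2. Other cells stood at 0.465 and 0.862 CPM, from 9 and 14 UMIs, above the neurons in both libraries but with overlapping intervals. The share of neurons with a Gnal UMI, 0.842% at a median of 15627.5 UMIs, fell to 0.107% with 5000 UMIs drawn from each cell, against 0.276% of macrophage-like cells treated in the same way. These shares are 1 of 934 neurons and 2 of 725 macrophage-like cells, and their intervals overlapped. A level above that of non-neuronal cells was not detectable at this depth. Precursor-like cells had 2.34 and 4.01 CPM (5 UMIs). Immature neurons had 0.808 and 3.28 CPM, from 2 and 6 UMIs, and the libraries lay far apart. All of these were in cells with more Meis2 than Tfap2e UMIs. Such cells held 2886827 of the 4305179 UMIs of immature neurons, against 743128 in cells with more Tfap2e. Receptor-bearing neurons were at -0.91 on the log2 scale against other cells (adjusted p = 0.198) and at -2.08 against immature neurons (adjusted p = 0.0984), neither past the threshold. The latter was -2.77 without library 1 and -0.96 without library 2.

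Of the channel subunits, Cnga4 and Cngb1 were both present in VSNs. Cnga4, a modulatory subunit that needs a partner to form a channel, was at 38.1 and 32.7 CPM in the receptor-bearing neurons of libraries 1 and 2. In other cells it was at 0.0516 and 0.185 CPM, from 4 UMIs in all, so that both neuronal values lay far above both others. The log2 fold change was 7.89 ± 0.32 (SE, 2 libraries, adjusted p = 2.15e-06, edgeR quasi-likelihood test with Benjamini-Hochberg adjustment). In this comparison 70.5% of the 17497 genes tested passed the threshold of 0.05, 33.6% higher and 36.9% lower in neurons, so that passing it is common and the sizes carry the information. With so few UMIs in other cells the size is loose, and it was 7.11 without library 1 and 9.0 without library 2. Of the 759 Cnga4 UMIs in all cells kept, 692 lay in the Omp neurons.

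Cngb1, the β-subunit of both rod and olfactory channels, was at 35.0 and 39.4 CPM in receptor-bearing neurons. Other cells had 1.03 and 1.42 CPM, and the groups did not overlap. The log2 fold change was 4.63 ± 0.18 (SE, adjusted p = 1.88e-06).

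Both calcium-activated chloride channels were detected in VSNs. Ano2, the channel of olfactory cilia, was at 48.6 and 47.1 CPM in receptor-bearing neurons against 0.413 and 0.739 CPM in other cells. Its log2 fold change was 6.08 ± 0.21 (SE, adjusted p = 1.43e-06), with 5.68 without library 1 and 6.53 without library 2. Ano1, a chloride channel also known from secretory epithelia, was at 43.6 and 47.6 CPM in receptor-bearing neurons. Other cells, which include glands, had 8.57 and 7.27 CPM, and the log2 fold change was 2.21 ± 0.15 (SE, adjusted p = 1.66e-05). With every cell thinned to 5000 UMIs it was 3.22. The gland-like cells described below were deeper than the neurons, with a median of 18384.5 UMIs.

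**Figure D1:**
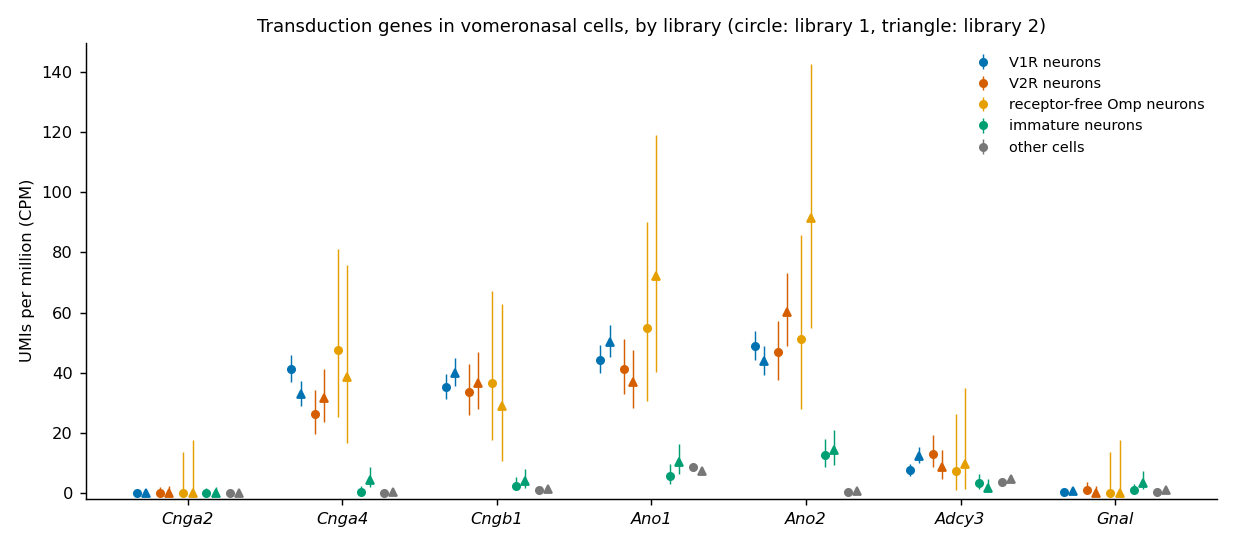
Level of each transduction gene in CPM (UMIs per 1000000, vertical axis) in V1R neurons, V2R neurons, receptor-free Omp neurons, immature neurons and other cells, with 1 point per library (circles library 1, triangles library 2) and exact 95% Poisson intervals as bars. Cnga4, Cngb1, Ano1 and Ano2 lie above 26 CPM in every group of Omp neurons, and Cnga2 and Gnal lie near 0 throughout.

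Adcy3, the cyclase of the olfactory route, depended on which neurons were counted. Over all receptor-bearing neurons it was at 8.65 and 11.5 CPM against 3.77 and 4.74 CPM in other cells, with a log2 fold change of 0.94 ± 0.22 (SE, adjusted p = 0.00827). Of the 189 UMIs, 159 lay in 1 deep cluster of 306 cells led by vomeronasal receptor genes. It held 262 (28.7%) of the receptor-bearing neurons, whose median was 30444 UMIs against 14058 UMIs for the 613 receptor-bearing neurons of the apical and basal VSN-like clusters. Adcy3 was at 15.5 and 19.7 CPM in the neurons of the deep cluster and at 3.35 and 2.62 CPM in those of the VSN-like clusters. In both libraries the deep cluster was the higher.

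With the 2 VSN-like clusters alone, a restriction chosen after seeing the data, the direction turned. Adcy3 was then lower in receptor-bearing neurons than in other cells, at -0.87 ± 0.29 on the log2 scale (adjusted p = 0.0309). Leaving out the deep cluster alone gave -0.78 (adjusted p = 0.0427), and thinning every cell to 5000 UMIs gave 0.51 (adjusted p = 0.225). The share of Omp neurons with an Adcy3 UMI, 13.8% of 950, was 4.37% in the 2 VSN-like clusters, 3.96% after thinning and 28.5% at the mitochondrial limit of 10%. The epithelial cluster led by Ugt2a2 had Adcy3 at 21.4 and 23.4 CPM and no Cnga4 UMI at all. Of the 306 deep cells, 1 was called a doublet by Scrublet. The part of mixed droplets and of depth in the Adcy3 level of this cluster was not tested.

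The channel genes kept their direction within the VSN-like clusters. There Cnga4 was at 53.6 and 42.9 CPM, against 21.2 and 25.8 CPM in the deep cluster. Cngb1 was at 43.8 and 31.6 CPM, Ano1 at 56.2 and 36.1 CPM, and Ano2 at 62.1 and 36.6 CPM, in the same order and over both libraries. All 4 were at lower CPM in the deep cluster. Against other cells, neurons of the VSN-like clusters differed by 8.24 (Cnga4), 4.79 (Cngb1), 2.44 (Ano1) and 6.37 (Ano2) on the log2 scale, all past the threshold.

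**Figure D2:**
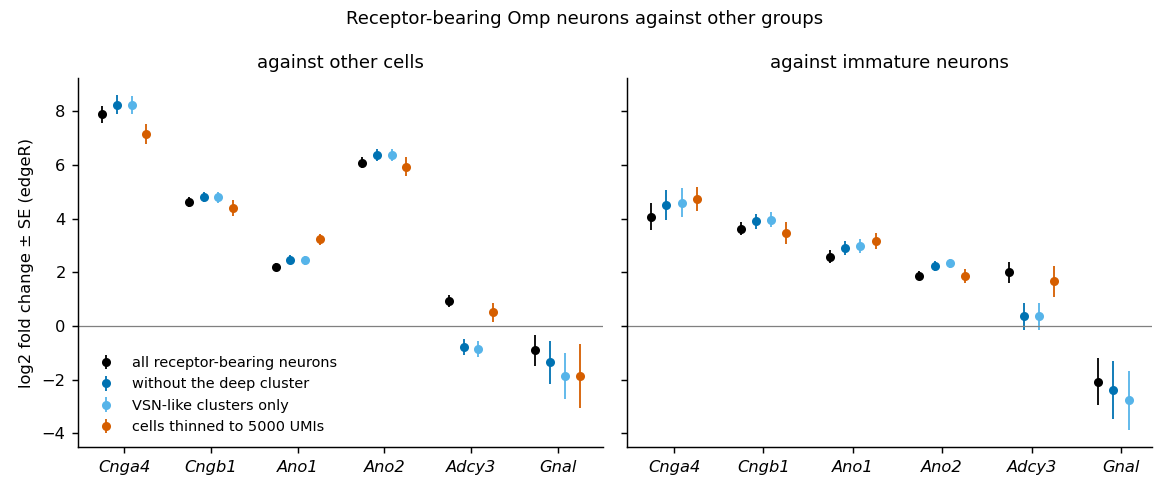
Log2 fold change of each gene (edgeR, bars are SE) in receptor-bearing Omp neurons against other cells (left) and against immature neurons (right), for all neurons, without the deep cluster, for the 2 VSN-like clusters only and for cells thinned to 5000 UMIs. Adcy3 changes sign on the left, from 0.94 with all neurons to -0.87 in the VSN-like clusters, and Gnal was not tested in thinned cells on the right.

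Each channel gene was seen in only a part of the neurons. A Cnga4 UMI was seen in 47.8% of the 950 Omp neurons (95% exact binomial interval 44.6 to 51.0%), at a median of 15627.5 UMIs per neuron. The shares were 48.3% for Cngb1, 52.5% for Ano1 and 57.9% for Ano2. With 5000 UMIs drawn from each cell, which left out 16 neurons, they were 18.7%, 17.1%, 20.7% and 22.5%. Macrophage-like cells, which should lack the 4 channel genes, had a median of 4510.5 UMIs. After the same thinning they gave 0.276% for Cnga4, 0.414% for Cngb1, 0.138% for Ano1 and 0.552% for Ano2. Adcy3 at 3.96% of thinned neurons stood nearer to the 2.07% of macrophage-like cells. That share is not a background level, because macrophage clusters differed in Adcy3. It was at 9.41 CPM in the cluster with raised Mrc1 and at 0.47 and 1.92 CPM in the others.

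**Figure D3:**
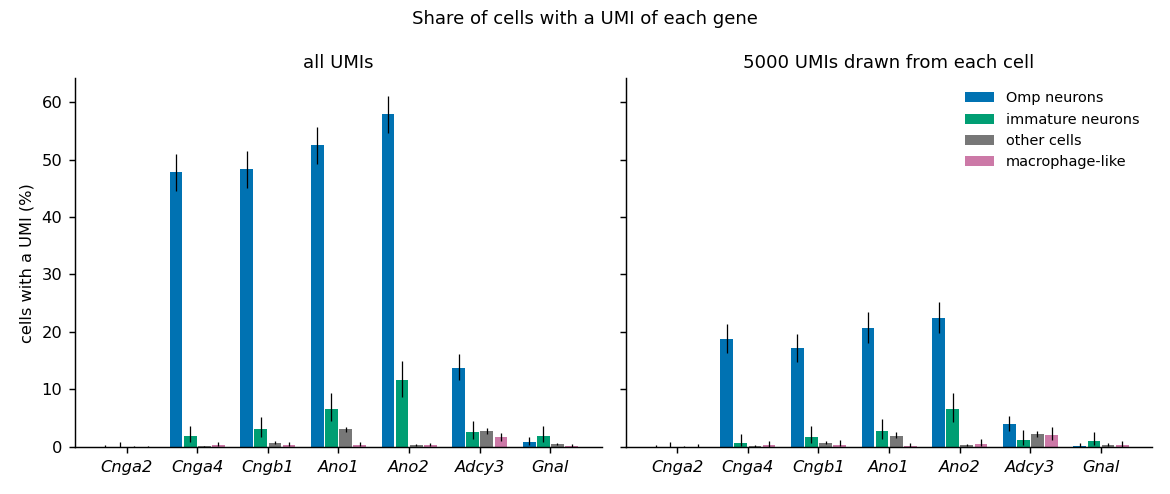
Share of cells with at least 1 UMI of each gene (%, bars are exact 95% binomial intervals) in Omp neurons, immature neurons, other cells and macrophage-like cells, with all UMIs (left) and with 5000 UMIs drawn from each cell (right). The 4 channel genes Cnga4, Cngb1, Ano1 and Ano2 fall from between 47.8% and 57.9% of Omp neurons to between 17.1% and 22.5%, and stay far above macrophage-like cells.

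Receptor-free neurons were compared with receptor-bearing ones to see whether neurons without vomeronasal receptors held the olfactory set. Cnga4 was at 47.4 and 38.5 CPM in the receptor-free neurons (21 UMIs in 36 cells), within the counting error of the receptor-bearing. Ano2 was at 51.1 and 91.4 CPM, Ano1 at 54.7 and 72.1 CPM, and Cngb1 at 36.5 and 28.8 CPM. For Ano1 and Ano2 both receptor-free values lay above both receptor-bearing ones, but the share of all genes that do so was not counted. The differences on the log2 scale were 0.13 ± 0.30 (Cnga4), -0.33 ± 0.31 (Cngb1), 0.29 ± 0.25 (Ano1), 0.36 ± 0.28 (Ano2) and -0.44 ± 0.60 (Adcy3). The sign was not stable for Adcy3, at 0.84 in thinned cells, 1.43 in the VSN-like clusters and 1.56 without the deep cluster, for Cnga4, at -0.30 in thinned cells, or for Cngb1, at 0.22 with the 10% mitochondrial limit. None of the 5 tested passed the threshold, with adjusted p between 0.727 and 0.906, where 0.251% of 14754 genes did, 0.0136% higher and 0.237% lower in the receptor-free. That comparison called 37 genes, and 407 with the library as a replicate block, which called no member either. No receptor-free neuron carried Cnga2 or Gnal.

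Cell by cell, the counts of the receptor-free neurons were sparse, at a median of 11491.5 UMIs, so a single cell cannot be said to lack a gene. Of the 36, 31 carried at least 1 of Cnga4, Cngb1, Ano1 and Ano2, and 1 carried all 4. Of the 914 receptor-bearing neurons, with a median of 15789.5 UMIs, 98 carried all 4 and 76 none. A cell of library 2 had 11 of the 13 Stoml3 UMIs in this group, together with 59 Gnai2, 44 Gng13 and 16 Gng8 UMIs. It had 1 Adcy3 UMI and 0 of the other 6 transduction genes. A further 3 receptor-free neurons carried Fpr-rs6, of the formyl peptide receptor family that some VSNs use, with 26 UMIs between them, against 12 UMIs in 4 of the 914 receptor-bearing, a gene singled out after its values were seen.

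Neurons with odorant receptor (Olfr) UMIs were looked at next. Of the 1135 Olfr genes counted, UMIs were found in 4 receptor-free neurons (1 UMI each) and in 76 receptor-bearing ones. The 4 cells held 3 Cnga4, 2 Cngb1, 2 Ano1 and 6 Ano2 UMIs, and 0 of Cnga2, Gnal and Adcy3. Against neurons with vomeronasal receptors and no Olfr UMI, no gene of 14476 passed the threshold (0%), with 1066 at an unadjusted p under 0.05, 14 with the replicate block and 123 by DESeq2, none of them 1 of the 7. The 4 cells, 3 and 1 by library, cannot support a comparison. In the 76 neurons with both kinds of receptor, Cnga4 stood at 35.7 CPM, Cngb1 at 33.6, Ano1 at 38.7, Ano2 at 43.8 and Adcy3 at 10.2 CPM, with 1 Gnal and 0 Cnga2 UMIs.

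A neuron of library 1 stood out by its odorant receptor. It held 142 UMIs of Olfr95 beside 1 of a vomeronasal receptor, in 11924 UMIs. With 15 Omp and 53 Gnai2 UMIs it carried the apical G protein, and it had 0 UMIs of all 7 transduction genes. The next highest neuron, in library 2, had 33 UMIs of Olfr78 beside 169 of Vmn1r39. It had 2 Cnga4, 1 Cngb1, 1 Ano1 and 2 Ano2 UMIs, in 30704. These 2 cells were chosen for their Olfr UMIs and are given as a description.

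V1R and V2R neurons, which use different G proteins, did not differ past the threshold in any of the genes. Cnga4 was at 41.2 and 32.9 CPM in V1R and at 26.1 and 31.6 CPM in V2R neurons. Ano1 was at 44.3 and 50.3 CPM in V1R and 41.2 and 37.0 CPM in V2R neurons, and Ano2 at 48.9 and 43.8 CPM and 46.7 and 60.1 CPM. Both V1R values of Cnga4 and Ano1 lay above both V2R values, and the Ano2 values overlapped. The share of all genes that separate in this way was not counted, so no difference is read from the order. Cngb1 was at 35.3 and 40.1 CPM in V1R and 33.7 and 36.4 CPM in V2R neurons, and Adcy3 at 7.56 and 12.3 CPM and 13.1 and 8.49 CPM, overlapping in both cases. The log2 differences, V1R over V2R, were 0.34 ± 0.21 (Cnga4), 0.07 ± 0.17 (Cngb1), 0.23 ± 0.16 (Ano1), -0.23 ± 0.17 (Ano2) and -0.18 ± 0.33 (Adcy3). The sign turned for Cnga4 in thinned cells (-0.18), for Cngb1 at the 10% mitochondrial limit (-0.0799) and for Adcy3 at that limit (0.27), in thinned cells (0.59), in the VSN-like clusters (2.44) and without the deep cluster (2.56). None of these 5 passed (adjusted p 0.539 to 0.903), where 3.18% of 14685 genes did, 1.37% higher and 1.81% lower in V1R. Within the VSN-like clusters Ano1 was at 60.4 CPM in V1R and 39.3 CPM in V2R neurons, a log2 difference of 0.55 (adjusted p = 0.145). Adcy3 there rested on 26 UMIs in V1R and 1 in V2R neurons.

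The channel genes were higher in mature than in immature neurons. Against immature neurons, a comparison added after seeing the data, Cnga4 went from 0.404 and 4.37 CPM to 38.1 and 32.7 CPM in receptor-bearing neurons. The immature values rest on 9 UMIs. The log2 fold change was 4.08 ± 0.51 (SE, adjusted p = 0.000747), where 38.6% of 15341 genes passed the threshold, 20.8% higher and 17.8% lower. It was 2.94 without library 1 and 6.50 without library 2. Cngb1 (3.63 ± 0.26, adjusted p = 6.61e-05), Ano1 (2.58 ± 0.25, adjusted p = 0.000229) and Ano2 (1.87 ± 0.18, adjusted p = 0.000215) were higher in both libraries as well. Adcy3 was 2.01 ± 0.39 (adjusted p = 0.00588) over all neurons, with 2.84 without library 1 and 1.43 without library 2. In the VSN-like clusters it was 0.36 (adjusted p = 0.592).

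Gap43 and Omp UMIs divided the same neurons into 4 steps, also chosen after seeing the data. Cnga4 was at 0.625 CPM in 339 neurons with Gap43 and no Omp UMI, 6.35 CPM in 85 with 1 to 4 Omp UMIs, 31 CPM in 170 Omp neurons that still had Gap43 and 37.3 CPM in 780 Omp neurons with less. Cngb1 was at 1.25, 8.16, 33.4 and 38.2 CPM at these steps. Summed over libraries, both subunits in Omp neurons with Gap43 were thus nearer to the last step than to the first. By library, Cnga4 was at 37.4 and 23.6 CPM in Omp neurons with Gap43 and at 38.7 and 35.7 CPM in those with less. Those with Gap43 were deeper, at a median of 17706.5 against 15237 UMIs. Over the 4 steps Ano1 was at 4.37, 17.2, 48.6 and 45.1 CPM, and Ano2 at 8.43, 27.2, 41.9 and 50.4 CPM. Among immature neurons Ano2 was at 22.9 CPM in the 71 with more Tfap2e than Meis2 and 10.7 CPM in the 287 with more Meis2, from 17 and 31 UMIs. Their intervals overlapped.

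**Figure D4:**
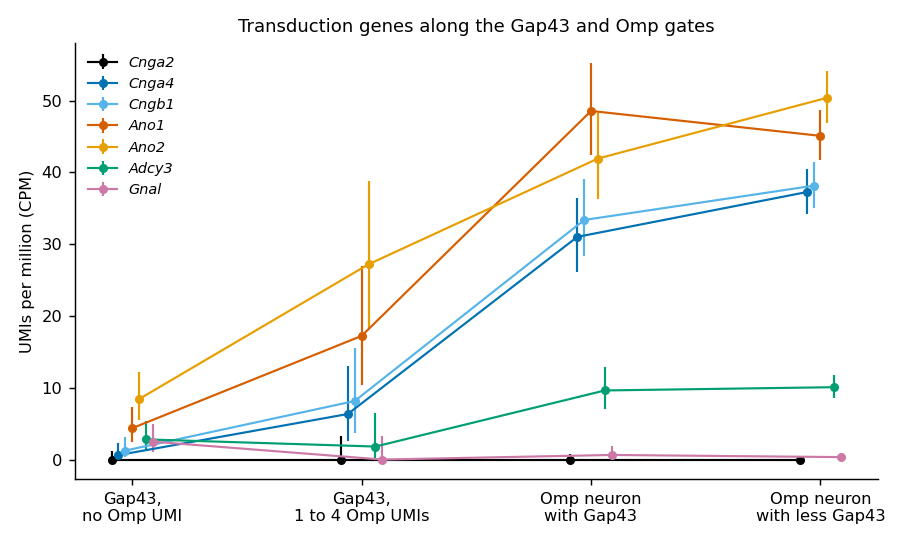
Level of each gene in CPM (UMIs per 1000000, vertical axis, both libraries summed, bars are exact 95% Poisson intervals) in neurons divided by their Gap43 and Omp UMIs into 4 steps from immature (left) to mature (right). Cnga4, Cngb1, Ano1 and Ano2 are at or under 8.43 CPM at the first step and above 30 CPM at the last 2, and Cnga2 stays at 0.

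Outside neurons, Ano1, Cngb1 and Adcy3 each had a class of cells with a level of its own. Ano1 was at 43.7 and 45.9 CPM in the 452 gland-like cells of libraries 1 and 2, with a UMI in 45.4% of them, close to the 45.5 CPM of receptor-bearing neurons. The Gnat3-led cluster of library 1 had 26.3 CPM of Ano1 (19 UMIs), and a shallow Ovol3-led cluster had 11.3 and 20.6 CPM (23 UMIs), at 46.7% and 27% of the level in neurons of the VSN-like clusters. In the same order Ano2 was at 15.6% and 25.5% of its level in those neurons, and Omp at 15.6% and 17.2%. In the Ovol3-led cluster Ano1 thus did not stand apart from Ano2. Ano1 was at 13.6 and 6.37 CPM in the Krt13-led epithelial cluster and at 5.46 and 7.19 CPM in fibroblast-like cells, whose ranges over libraries overlapped. Omp in gland-like cells was at 0.708% of its level in the neurons of the VSN-like clusters, and Ano1 at 79.5%. Ano2 was at 0.387 CPM there.

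Cngb1 was at 9.84 and 9.12 CPM in the 782 endothelial-like cells (53 UMIs, 6.39% of cells). Cnga4 had 1 UMI in the same cells, and Omp was at 1.89% of its neuronal level where Cngb1 was at 21.6%. Endothelial-like cells are a part of the other cells, whose mean of 1.21 CPM hides this level. The Ovol3-led cluster of 681 cells (median 1154 UMIs), and the Gnat3-led cluster of library 1 held between 4.15 and 6.91 CPM of Cnga4 and Cngb1, with Omp at 17.2% and 15.6% of its neuronal level. What neuronal RNA from outside adds to these values was not tested.

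Adcy3 was found in many classes. It was at 22.4 CPM in the Ugt2a2-led cluster, 9.74 and 21.1 CPM in fibroblast-like cells, 13.8 and 7.37 CPM in ensheathing-like cells and 6.01 and 7.12 CPM in basal-like cells. The apical VSN-like cluster, at 4.10 CPM, came below all of these. It lay above several other classes, among them macrophage-like (3.77 CPM), endothelial-like (1.07 CPM) and gland-like cells (0.290 CPM). The basal VSN-like cluster had 0 UMIs in 1844298. Of the non-neuronal classes named by markers, fibroblast-like cells had the highest Ano2, at 2.73 and 7.19 CPM. The Ovol3-led and Gnat3-led clusters, named by a leading gene, had more, at 15.8 and 9.68 CPM over the cells of each. Markers of tuft cells (Trpm5, Avil and Gnat3) were raised in both, and smooth muscle markers in the Gnat3-led cluster as well. Apart from the Ovol3-led and Gnat3-led clusters given above, Cnga4 was at no more than 1.11 CPM in the classes outside the neurons.

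**Figure D5:**
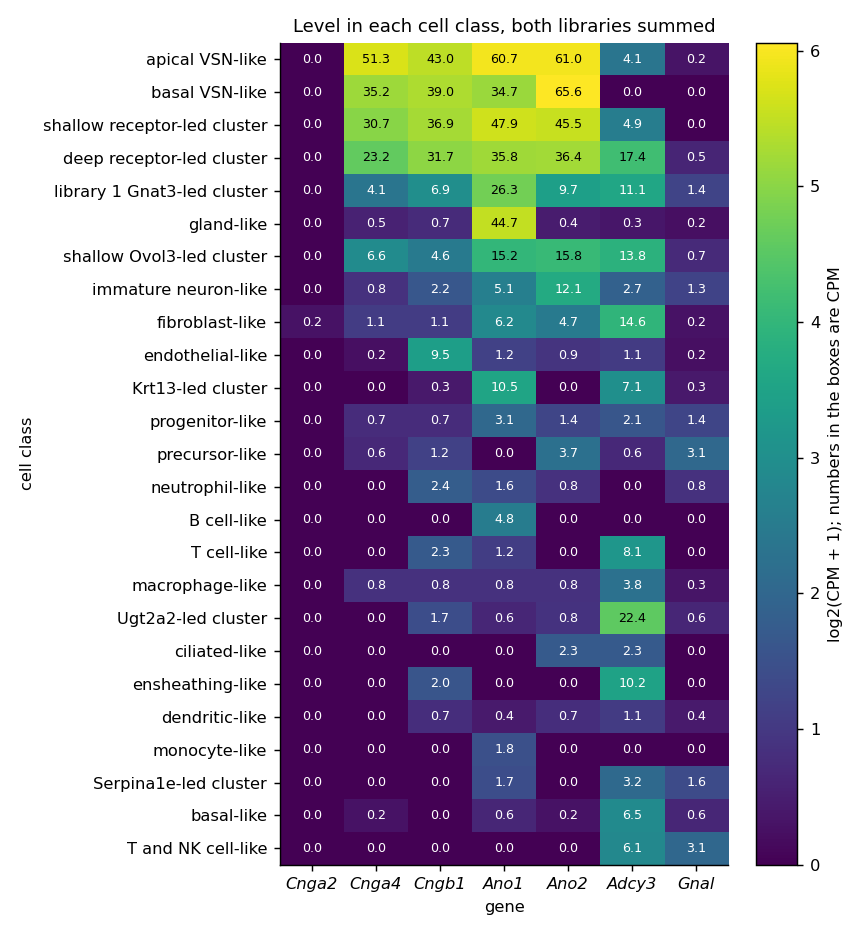
Level of the 7 genes in 25 cell classes, both libraries summed, coloured by log2(CPM + 1) with the CPM written in each box. The neuronal classes at the top share Cnga4, Cngb1, Ano1 and Ano2, gland-like cells hold Ano1 at 44.7 CPM, endothelial-like cells Cngb1 at 9.46 CPM, and Cnga2 is at 0 in all but fibroblast-like cells.

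Detection of the channel genes together was counted in single neurons. Of the 914 receptor-bearing neurons, 98 carried all of Cnga4, Cngb1, Ano1 and Ano2, 251 carried 3, 266 carried 2, 223 carried 1 and 76 none. With 5000 UMIs drawn from each of 899 neurons, Cnga4 and Cngb1 met in 34 cells, where independent detection would give 28.8. Ano1 and Ano2 met in 52 cells, where it would give 41.4, and Cnga4 and Ano1 in 29, where it would give 34.9. The shares are those of sparse counts in 1 pool of cells, and no relation is read from them.

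A list of 14 further genes of olfactory transduction was followed. Against other cells, 10 were higher in receptor-bearing neurons, 0 were lower and 4 did not pass, with a median log2 difference of 3.36 against -0.07 over all genes, of which 33.6% were higher and 36.9% lower. They included Gng13, the γ-subunit partner of Gαolf (6.36 ± 0.17), Pde4a, a phosphodiesterase that breaks down cAMP (3.06 ± 0.14), and Slc12a2, the carrier that loads chloride into the neuron (2.31 ± 0.12). Omp is on the list and its UMIs defined the groups, so its call was fixed, and without it 9 of 13 were higher (median 3.06). Stoml3 was at 1.70 ± 1.15 (adjusted p = 0.225) and did not pass. Against immature neurons 9 were higher, 8 of 13 without Omp, and 1, the receptor kinase Grk3 (-1.17 ± 0.17), was lower, where 20.8% of all genes were higher and 17.8% lower. Between V1R and V2R neurons 2 passed, both higher in V1R as were 1.37% of all genes, Gng13 by 2.04 ± 0.23 and Rtp1 by 2.21 ± 0.23. None of the 14 passed between receptor-free and receptor-bearing neurons.

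The vomeronasal route was followed in the same way through 15 genes. Against other cells, 13 of the 14 tested were higher (median 2.89), among them Gng8 (6.52 ± 0.15), where 33.6% of all genes were. Itpr3, an inositol trisphosphate receptor, was lower (-2.39 ± 0.17), as were 36.9% of all genes. Against immature neurons 6 of the 15 were higher and 6 lower, against 20.8% and 17.8% of all genes. Between V1R and V2R neurons Gnai2 (2.18 ± 0.20), Meis2 and Nrp2 were higher, and Gnao1 (-3.45 ± 0.30), Robo2 and Tfap2e were lower, 3 in each direction, against 1.37% and 1.81% of all genes. These are known markers of apical and basal VSNs. Gnao1 was the 1 gene of the list to pass between receptor-free and receptor-bearing neurons, lower in the receptor-free, where it had 3 UMIs in 36 cells. The receptor-bearing group includes V2R neurons, with Gnao1 at 251 CPM, against 23.5 CPM in V1R and 6.22 CPM in receptor-free neurons.

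Among 21 sister genes of the same families, 5 were higher and 6 lower in receptor-bearing neurons than in other cells, and 12 had enough UMIs to test (median -0.13). Over all genes 33.6% were higher and 36.9% lower, a split near that of the sister genes. Against immature neurons 3 of 12 were higher and 4 lower, where 20.8% and 17.8% of all genes were. Adcy2, a cyclase named for VSNs, was at 13.6 and 17 CPM in receptor-bearing neurons and at 1.19 and 0.862 CPM in other cells (3.57 ± 0.26, adjusted p = 2.77e-05). This gene, which the vomeronasal list also holds, was at 13.5 CPM in the VSN-like clusters and 17.7 CPM in the deep cluster. Of the other anoctamins, Ano9 (3.37 ± 0.30), Ano4, Ano8 and Ano10 were higher and Ano6 (-4.12 ± 0.27) was lower. Gnas, the close relative of Gnal, was at 662 and 643 CPM in receptor-bearing neurons, 1891 and 1638 CPM in immature neurons and 741 and 703 CPM in other cells. The cone channel subunit Cnga3 had 12 UMIs in immature neurons and 0 in receptor-bearing neurons and other cells, and passed the threshold between immature and receptor-bearing neurons (adjusted p = 0.00701). Cnga1 and Cngb3 had 0 UMIs in receptor-bearing neurons, so no other channel subunit of the list was seen beside Cnga4 and Cngb1 there.

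Across the 34 clusters, genes were ranked by how closely their level followed each gene, over 14717 genes and as Pearson correlations of log2(CPM + 10). For Cnga4 these were Extl1 (0.991), Plaat1 and Gm17396 (0.976 each). For Ano2 they were Slc17a6, the vesicular glutamate transporter (0.980), A830018L16Rik and Gabbr2. For Cngb1 the values were lower, with Gm47484 (0.921), Scgn and Gm16638. Ano1 came with B4galnt2 (0.892), Pde8b and Gmds, and Adcy3 with Rhod (0.821), Insyn1 and Arhgap10. The points are clusters of the same 2 libraries that differ in depth, and the values are a description.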

How the data were processed

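Vomeronasal organs of P60 male mice were profiled in 2 droplet libraries. Raw UMI counts per gene and cell were deposited by the authors, and the labels name bcl2fastq, Cell Ranger 4, Seurat 3.2.3 and mm10. Settings for merging the libraries are not given in the sources used here.

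Cells were kept if they had 200 to 9000 genes and no more than 5% of UMIs from mitochondrial genes. Scrublet (scanpy 1.11.5) called 68 and 104 doublets, which stayed in. Cells were clustered with Seurat 5.3.0 (2000 variable genes, 30 components, resolution 0.8). UMIs of each cell group were added up within each library, and genes with at least 10 UMIs were tested with edgeR 4.0.16 (R 4.3.3, TMM, quasi-likelihood, Benjamini-Hochberg threshold 0.05). CPM have exact Poisson and shares exact binomial intervals at 95%. A value of 0 was given a floor of 3 counts. To compare shares, cells were thinned to 5000 UMIs.

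Named genes were the 7 members, up to 8 from each list of partners, further olfactory neuron markers and sister genes of the families. The 3 genes most like each member and Olfr genes of Omp neurons were named as well. The members and lists were chosen with earlier results of these data known. The sums compared came from the same libraries, and deviations of same-numbered sums correlated between -0.0045 and 0.168. Alternatives were a replicate block, other scalings and filters, DESeq2 1.42.0, other cell limits and leaving out a library. Scripts were tested on simulated data.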

Additional observations from a re-analysis of the deposited data

How the results depend on the processing

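With the library as a replicate block, the receptor-free comparison called 407 genes in place of 37 and the Olfr comparison 14 in place of 0, and no call of a member changed. The receptor-free count was 57 with filterByExpr, 172 with DESeq2, 114 at 10% mitochondrial UMIs, 17 at 10 Omp UMIs and 12 in thinned cells. The Olfr count was 119 with filterByExpr, 123 with DESeq2, 1 at 10% mitochondrial UMIs, 10 without called doublets, 36 at 2 receptor UMIs and 48 in thinned cells. It had no fit at 10 Omp UMIs or in the VSN-like clusters alone. The V1R against V2R count of 467 was 968 in the VSN-like clusters and 768 without the deep cluster, 2 restrictions chosen after seeing the data.

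The share of Omp neurons with a UMI in thinned cells was 18.7% (Cnga4), 17.1% (Cngb1), 20.7% (Ano1), 22.5% (Ano2), 3.96% (Adcy3) and 0.107% (Gnal). At 2 Omp UMIs it was 42.2% (Cnga4), 42.8% (Cngb1), 47.6% (Ano1) and 52.5% (Ano2), and at 10 it was 52.6%, 54.4%, 58.3% and 63.1%. At 10% mitochondrial UMIs it was 52.5% (Cngb1), 28.5% (Adcy3) and 58.1% (Ano1). In the VSN-like clusters it was 44.3% (Cngb1), 4.37% (Adcy3) and 0.312% (Gnal), and without the deep cluster 44.7% (Cngb1) and 4.53% (Adcy3). Leaving out a library gave 45.2% to 52.1% (Cngb1) and 11.8% to 16.2% (Adcy3).

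Of log2 differences, 17 changed sign. Against other cells Adcy3 was -0.87 in the VSN-like clusters and -0.78 without the deep cluster. The other 15 did not pass the threshold in any setting. Receptor-free over receptor-bearing, they were Cnga4 at -0.30 and Adcy3 at 0.84 in thinned cells, Cngb1 at 0.22 at 10% mitochondrial UMIs, and Adcy3 at 1.43 in the VSN-like clusters and 1.56 without the deep cluster. In the Olfr comparison they were Cnga4 at -0.0933 and Cngb1 at 0.14 at 10% mitochondrial UMIs, and Cngb1 at 0.0244 with RLE factors and 0.0225 with DESeq2. V1R over V2R, they were Cnga4 at -0.18 and Adcy3 at 0.59 in thinned cells, Cngb1 at -0.0799 and Adcy3 at 0.27 at 10% mitochondrial UMIs, and Adcy3 at 2.44 in the VSN-like clusters and 2.56 without the deep cluster. The cause was not tested. Among log2 differences that kept their sign, 3 that passed in the main fit did not pass in another setting. In the other direction, 1 that had not passed in the main fit did pass in another setting. Leaving out a library left 1 sum in each group, so those fits gave differences and no count of calls.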
